A study of Mus musculus with 30 samples.

Results

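The livers of D2 mice fed an iron-deficient diet were compared with those of D2 mice fed an iron-balanced diet, on all arrays whose titles name the DBA/2 strain and either diet. That gave 10 of the 30 arrays of the series, 5 deficient and 5 balanced, each from 1 mouse with its own animal code. D2 is the inbred strain DBA/2. The deficient diet held less than 3 mg of iron per kg, and the balanced diet held 200 mg per kg. The other arrays came from D2 mice on an iron-enriched diet and from C57BL/6 (B6) mice on the same 3 diets, with 5 mice in every group. No allele or drug is named for any group, and the labels give the tissue as liver. The labels name no sex, age, length of feeding, fasting state or hour of sampling. Mice are numbered 1 to 5 within a diet only to name them.

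Hepcidin is the liver hormone that sets how much iron enters the blood. It binds the iron exporter ferroportin on gut cells and macrophages and causes its removal. When body iron is ample, the ligand BMP6, made mainly by endothelial cells of the liver sinusoids, acts through SMAD proteins in hepatocytes and raises transcription of the hepcidin gene together with Smad7, Id1 and Atoh8. Inside cells, iron regulatory proteins sense iron in parallel and act on messenger RNAs: they stabilise that of the transferrin receptor when iron is scarce and hold back translation of the ferritins.

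RNA was hybridised to 1-colour oligonucleotide arrays covering the mouse genome, and the values are log2 fluorescence intensities after quantile normalization. Over the series, between 63.1% and 78.8% of probes on an array stood well above background, with 70.3% ± 4.45 in D2 deficient and 68.1% ± 1.47 in D2 balanced livers (SD, n = 5 each). The number of arrays limits the precision. In a principal component analysis of the 10 arrays, the first component held 33.7% of the variance and set balanced mouse 5 apart, with a median correlation of 0.980 with the other balanced arrays, where every other array had at least 0.988 with its own group. The next component, with 19.5%, parted all deficient from all balanced arrays. Balanced mouse 5 was kept. Scan days were mixed: day 1 held 1 deficient and 1 balanced array, day 2 held 2 and 3, and day 3 held 2 and 1. Differences are deficient minus balanced on the log2 scale with limma's standard error (SE), and each adjusted p is from limma over all 20332 genes tested, with 0.05 as the threshold for a call.

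Iron withdrawal changed 977 of 20332 genes in D2 livers, 368 higher and 609 lower, which is 4.81% of the genes in either direction, 1.81% higher and 3.00% lower. Most of these changes were small: 100 of them reached a 2-fold difference, 40 higher and 60 lower. The median difference over all genes was -0.0054. In whole liver, fewer cells of a type and less RNA per cell cannot be told apart. The 5 deficient and the 5 balanced values did not overlap for 1343 genes (6.61%), 515 higher (2.53%) and 828 lower (4.07%), and 738 genes were both called and free of overlap. At an unadjusted p under 0.05 there were 3642 genes (17.9%). The largest falls were in the hepcidin genes Hamp and Hamp2, and the rise with the smallest adjusted p was in Tfrc. Many calls of single genes depended on the setting. Of the 133 called genes that the naming rule chose, 78 passed in all 10 settings that left out 1 mouse, and 88 passed without balanced mouse 5. With the slide as a block 101 passed, with the 10 arrays alone in the fit 76, and with the methods' t-test 70. Losses with a mouse left out, with the slide as a block and with the 10 arrays alone are named beside the genes. Of the 133, 47 had a further kept probe, and for 26 of these at least 1 further probe did not pass over all probes, with the opposite sign for 6.

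**Figure D1:**
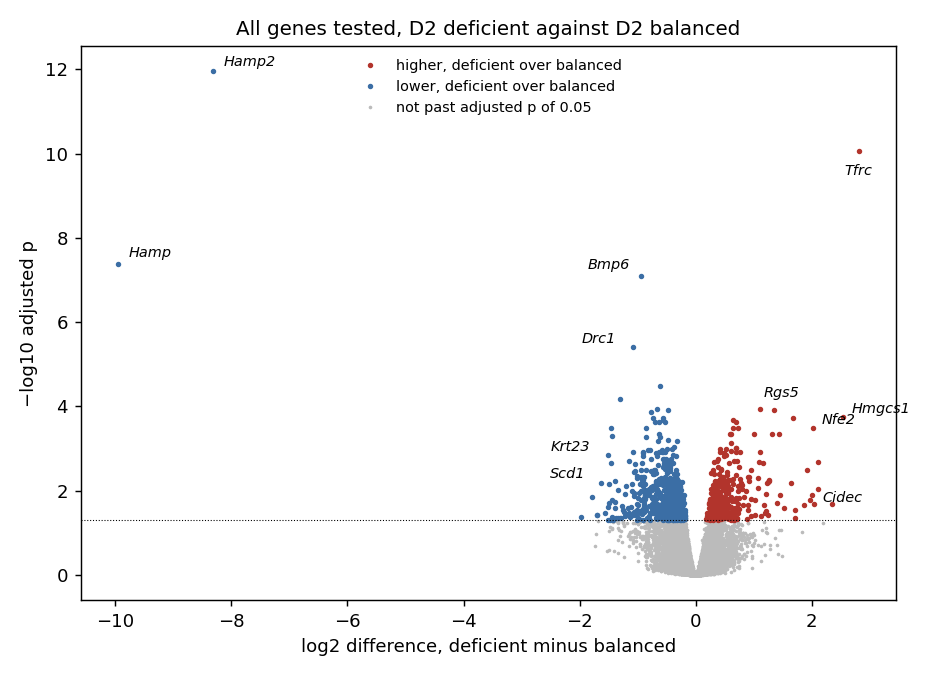
Each point is 1 of the 20332 genes tested, with the log2 difference (deficient minus balanced) across and −log10 of the adjusted p upward. The 368 genes higher in deficient livers are red and the 609 lower ones are blue. Hamp and Hamp2 lie far to the left and Tfrc to the right, while most called genes lie within 1 log2 unit of 0.

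Hamp, the hepcidin gene, was near the floor of detection in the deficient mice and among the bright probes of the balanced mice. The deficient mice had 8.94, 5.45, 4.21, 3.92 and 3.92 log2 units, against 16.02, 14.80, 13.02, 16.42 and 15.97 in the balanced mice. The software marked the probe well above background on 3 of the 5 deficient arrays, and signals were raised to a floor of 15.1 intensity units before the logarithm, so the fitted difference of -9.96 (SE 0.85, adjusted p = 4.13e-08) depends on that floor. Deficient mouse 1 kept the highest Hamp signal of its group, yet its value lay below every balanced mouse. Hamp2, a close copy of Hamp next to it in the genome, had 10.16, 7.56, 7.97, 6.802 and 7.41 in the deficient mice and 17.15, 16.07, 15.02, 16.87 and 16.39 in the balanced mice. Its probe was above background on all 10 arrays, and the difference was -8.32 (SE 0.43, adjusted p = 1.11e-12). The groups did not overlap for either gene, and deficient mouse 1 was the highest deficient mouse for both. Because the genes are such close copies, either probe may bind RNA of both, and the level of each alone is uncertain.

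The promoters of the 2 hepcidin genes are shown because both genes fell most, and because BMP signals reach hepcidin through elements upstream of its start. The windows span the RefSeq transcript start on build GRCm38.p6, both on the minus strand, at chr7:30943980-30944279 for Hamp and chr7:30924132-30924431 for Hamp2. Capitals mark the core of the BMP response element, GGCGCC, which reads the same on both strands.
Hamp: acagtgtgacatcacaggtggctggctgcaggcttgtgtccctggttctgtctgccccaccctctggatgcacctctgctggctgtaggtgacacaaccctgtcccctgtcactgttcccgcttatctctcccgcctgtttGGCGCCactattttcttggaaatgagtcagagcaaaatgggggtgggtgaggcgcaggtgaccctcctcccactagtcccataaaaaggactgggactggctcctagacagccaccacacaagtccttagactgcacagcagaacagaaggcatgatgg
Hamp2: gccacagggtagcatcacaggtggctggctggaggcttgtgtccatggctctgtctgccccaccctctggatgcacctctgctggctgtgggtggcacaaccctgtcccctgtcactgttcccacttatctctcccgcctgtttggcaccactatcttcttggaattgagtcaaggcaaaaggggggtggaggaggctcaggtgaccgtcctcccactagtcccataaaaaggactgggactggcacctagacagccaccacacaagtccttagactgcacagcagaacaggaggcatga
The Hamp window held 1 match, which starts at position -109 relative to the transcript start, and the Hamp2 window held none. Of 32851 promoter windows in the RefSeq table, 11.9% held this core. A match is a description of the letters and does not show that a factor binds there.

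The 4 genes of the series title had lower means in deficient livers, with far smaller differences. Bmp6, the ligand, had 7.92, 8.21, 7.91, 8.08 and 8.17 in deficient mice and 9.17, 8.91, 8.82, 9.11 and 8.96 in balanced mice. Every deficient mouse lay below every balanced mouse, and the difference was -0.93 (SE 0.08, adjusted p = 7.94e-08), a 1.91-fold lower mean. A further Bmp6 probe gave -1.03. Smad7, the inhibitory SMAD that is itself a target of the pathway, had 9.19, 8.86, 9.01, 8.89 and 8.83 in deficient mice, against 9.70, 9.65, 9.24, 9.98 and 10.13 in balanced mice. Those groups did not overlap either, although balanced mouse 3 lay just above deficient mouse 1, and the difference was -0.78 (SE 0.22, adjusted p = 0.0344). Atoh8, a helix-loop-helix transcription factor, had 8.37, 8.22, 8.22, 8.28 and 8.07 in deficient mice and 8.94, 9.22, 8.55, 9.06 and 9.06 in balanced mice, without overlap, for a difference of -0.73 (SE 0.20, adjusted p = 0.0334).

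Id1, an inhibitor of helix-loop-helix factors, had the largest mean difference of the 4 title genes and the widest spread. Its values were 8.66, 8.82, 8.30, 8.40 and 8.69 in deficient mice and 9.93, 9.25, 8.61, 9.95 and 10.11 in balanced mice. Balanced mouse 3 lay inside the deficient range, and the difference of -0.995 (SE 0.31, adjusted p = 0.0616) did not pass, with a 95% interval of -1.63 to -0.36. Balanced mouse 3 was the lowest balanced mouse for Hamp, Hamp2, Bmp6, Smad7, Id1 and Atoh8 alike. The study chose the title genes on these samples, so their direction here is not independent evidence. Smad7 lost its call in 7 of the 10 settings that left out a mouse (adjusted p up to 0.11, without balanced mouse 5), Atoh8 in 9 (adjusted p up to 0.0808, without balanced mouse 5). Smad7 and Atoh8 did not pass with the slide as a block (adjusted p 0.123 to 0.124). Bmp6 and both hepcidin genes passed in all 10 settings that left out a mouse.

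**Figure D2:**
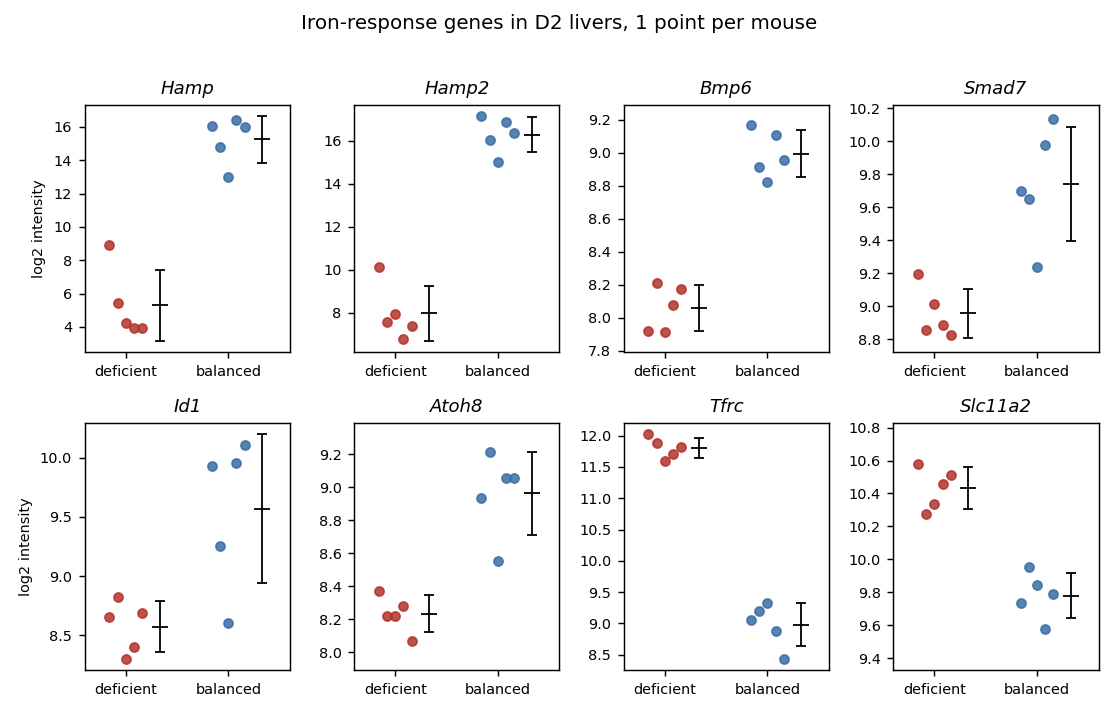
Log2 intensity of 8 iron-response genes, 1 point per mouse, with deficient mice (red) left of balanced mice (blue), and the mean ± SD (n = 5 each) as a bar beside each group; each panel has its own scale. The groups overlap for Id1 alone, where balanced mouse 3 lies at 8.61, and Tfrc and Slc11a2 are higher in deficient mice while the other genes are lower.

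No other gene of BMP signalling passed: 0 of 31 tested ligands, receptors, SMADs and further targets were called, with a median difference of 0.02, and 4 in each direction had an unadjusted p under 0.05. Id2 and Smad6, which BMP signals can also raise, differed by -0.37 (SE 0.23) and -0.21 (SE 0.16). Among the ligands, Bmp2 differed by -0.22 (SE 0.14) and Gdf2, which encodes BMP9, by 0.33 (SE 0.15). Id4 was higher in every deficient mouse than in any balanced mouse but did not pass (0.41, SE 0.19, adjusted p = 0.259). The sensors that act on hepcidin in hepatocytes, such as Hfe, Hjv and Tfr2, also had 0 calls among 10 genes, 1 of them with an unadjusted p under 0.05. Tfr2, the transferrin receptor of hepatocytes, differed by -0.0004 (SE 0.06, 95% interval -0.12 to 0.12). Tmprss6, the protease that cleaves hemojuvelin and lowers hepcidin, had 15.22, 15.23, 15.14, 15.33 and 15.30 in deficient mice and 15.69, 15.44, 15.30, 15.41 and 15.80 in balanced mice, for a difference of -0.28 (SE 0.11, adjusted p = 0.139).

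Tfrc, the transferrin receptor that carries iron into cells, was the largest rise of all named genes. Deficient mice had 12.03, 11.88, 11.59, 11.70 and 11.81, against 9.05, 9.19, 9.33, 8.89 and 8.44 in balanced mice. Every deficient mouse lay more than 2 log2 units above every balanced mouse, a 7.08-fold higher mean, and the difference was 2.82 (SE 0.18, adjusted p = 8.78e-11). Within scan days 1, 2 and 3 it was 2.99, 2.57 and 3.37. Slc11a2 encodes the transporter DMT1, which moves iron across membranes. It had 10.58, 10.28, 10.33, 10.46 and 10.51 in deficient mice and 9.74, 9.95, 9.84, 9.58 and 9.79 in balanced mice, without overlap, for a difference of 0.65 (SE 0.09, adjusted p = 0.000205). Its other 2 probes gave -0.06 and 0.18 and did not pass. Of 15 genes for iron uptake and its reduction, 2 rose and 1 fell, beside 1.81% of all genes called higher and 3.00% lower. The fall was in Steap3, a ferrireductase, at -0.43 (SE 0.11, adjusted p = 0.0219), and its other probe gave 0.11. Trf, which encodes transferrin itself, differed by 0.15 (SE 0.07). Steap3 lost its call in 3 of the 10 settings that left out a mouse (adjusted p up to 0.07, without deficient mouse 3). Steap3 did not pass with the 10 arrays alone in the fit (adjusted p = 0.0634).

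Genes that store, export or sense iron inside the cell had few calls. Of 3 genes around the iron regulatory proteins, Fbxl5, the ubiquitin ligase subunit that removes one of them when iron is ample, fell (-0.31, SE 0.09, adjusted p = 0.0426). Its further probes gave -0.30 and -0.20 and did not pass. Ireb2 and Aco1, which encode the regulatory proteins, differed by 0.10 (SE 0.09) and -0.11 (SE 0.08), and the other Aco1 probe gave -0.57 and passed (adjusted p = 0.0267 over all probes). In the list of ferritin, export and iron chaperone genes 0 of 12 passed and 2 had an unadjusted p under 0.05. Fth1, the ferritin heavy chain, had 18.02, 18.16, 18.02, 17.98 and 17.996 in deficient mice and 18.06, 17.98, 17.996, 17.98 and 18.28 in balanced mice, a difference of -0.02 (SE 0.06, 95% interval -0.14 to 0.09). Slc40a1, which encodes ferroportin, differed by -0.28 (SE 0.13, adjusted p = 0.256), and Ncoa4, the carrier that takes ferritin to lysosomes, by -0.38 (SE 0.14, adjusted p = 0.119) with no overlap of the groups. Fbxl5 lost its call in 8 of the 10 settings that left out a mouse (adjusted p up to 0.126, without deficient mouse 3). Fbxl5 did not pass with the slide as a block (adjusted p = 0.106). Fbxl5 did not pass with the 10 arrays alone in the fit (adjusted p = 0.11).

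In heme synthesis 0 of 13 genes passed, the median was -0.11, and 5 were lower at an unadjusted p under 0.05, beside 17.9% of all genes in either direction. Of its enzymes, Ppox (-0.21, SE 0.06, adjusted p = 0.0553), Fech (-0.19, SE 0.07, adjusted p = 0.12) and Alad (-0.20, SE 0.08, adjusted p = 0.175) had lower values in every deficient mouse than in any balanced mouse, as did 4.07% of all genes. Alas1, the rate-setting enzyme in liver, had 15.66, 17.01, 15.90, 16.64 and 17.10 in deficient mice and 16.67, 16.11, 16.93, 17.09 and 17.18 in balanced mice, and the groups overlapped. Of 13 genes for heme breakdown, export and scavenging, 3 rose, beside 1.81% of all genes called higher: the heme exporter Flvcr1 (0.28, SE 0.08, adjusted p = 0.0334), haptoglobin, Hp (0.29, SE 0.08, adjusted p = 0.0439), and the bilirubin-conjugating enzyme Ugt1a1 (0.35, SE 0.10, adjusted p = 0.038). The other Flvcr1 probe gave 0.50 and did not pass. Hmox1, heme oxygenase, differed by 0.31 (SE 0.14, adjusted p = 0.231). Flvcr1 lost its call in 7 of the 10 settings that left out a mouse (adjusted p up to 0.102, without deficient mouse 1), Hp in 8 (adjusted p up to 0.118, without balanced mouse 5) and Ugt1a1 in 8 (adjusted p up to 0.118, without balanced mouse 5). Flvcr1 and Hp did not pass with the slide as a block (adjusted p 0.0524 to 0.0559). Flvcr1, Hp and Ugt1a1 did not pass with the 10 arrays alone in the fit (adjusted p 0.0969 to 0.162). In each setting that left out 1 mouse, 0 or 1 gene of this list passed. Erythroid transcripts had 0 calls of 13 and 1 with an unadjusted p under 0.05, Hba-a1 differing by -0.27 (SE 0.22).

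Iron-sulfur clusters are built in mitochondria, and the respiratory chain uses both these clusters and heme. Of 31 cluster assembly genes, 2 fell, where 3.00% of all genes were called lower: Nubpl, which loads complex I with clusters (-0.38, SE 0.08, adjusted p = 0.00583), and Hscb, a co-chaperone of cluster transfer (-0.40, SE 0.10, adjusted p = 0.0262). Nubpl had 2 further probes, at -0.41 and 0.17. Iscu, the scaffold on which clusters are built, had 14.21, 14.21, 14.04, 14.22 and 14.20 in deficient mice and 14.32, 14.33, 14.34, 14.31 and 14.40 in balanced mice, without overlap, but did not pass (-0.16, SE 0.05, adjusted p = 0.0601). Among 54 respiratory chain subunits, 7 fell and 1 rose, beside the same 3.00%. The groups did not overlap downward for 12, beside 4.07% of all genes, and the median was -0.10, against -0.0054 for all genes.

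The subunits that fell were Sdhb, the iron-sulfur subunit of complex II, Ndufs8, Ndufv3, Ndufb8 and Ndufa4, and Cox6a1 and Cox6c of complex IV. Sdhb had 14.88, 14.87, 14.83, 14.89 and 14.78 in deficient mice, against 15.08, 15.14, 15, 15.09 and 15.15 in balanced mice. All deficient values lay below all balanced ones, and the difference was -0.24 (SE 0.06, adjusted p = 0.0209), a 1.18-fold lower mean. The 7 falls ran from -0.29 to -0.18, and Cox6c had 4 balanced values, since 1 spot was marked as an outlier. Cycs, cytochrome c, rose instead, with 14.87, 14.95, 14.96, 14.81 and 14.70 in deficient mice and 14.50, 14.61, 14.58, 14.59 and 14.28 in balanced mice (0.34, SE 0.08, adjusted p = 0.0172). Its further probes gave 0.12 and 0.16 and did not pass. Nor did the further probes of Ndufb8 (-0.13) and Ndufv3 (-0.21 and -0.18). Hscb lost its call in 4 of the 10 settings that left out a mouse (adjusted p up to 0.0725, without deficient mouse 1), Sdhb in 2 (without balanced mouse 5 and deficient mouse 3, adjusted p up to 0.057) and Ndufs8 in 6 (adjusted p up to 0.133, without balanced mouse 5). Ndufv3 lost its call in 7 of the 10 settings that left out a mouse (adjusted p up to 0.103, without deficient mouse 2), Ndufb8 in 6 (adjusted p up to 0.0785, without balanced mouse 5) and Ndufa4 in 9 (adjusted p up to 0.144, without balanced mouse 5). Cox6c lost its call in 1 of the 10 settings that left out a mouse (without balanced mouse 5, adjusted p 0.0859), Cycs in 2 (without balanced mouse 5 and deficient mouse 3, adjusted p up to 0.0644). Ndufs8 and Cycs did not pass with the slide as a block (adjusted p 0.0684 to 0.0809). Sdhb, Ndufs8, Ndufv3, Ndufb8, Ndufa4, Cox6a1, Cox6c and Cycs did not pass with the 10 arrays alone in the fit (adjusted p 0.066 to 0.201). Without balanced mouse 5, 2 of the 54 subunits were called lower and 0 higher.

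Genes that respond to low oxygen had few calls. Of 28 hypoxia targets and prolyl hydroxylases, 1 rose, the histone demethylase Kdm3a, which had 10.78, 10.54, 10.51, 10.63 and 10.50 in deficient mice and 10.14, 10.31, 9.96, 9.96 and 9.80 in balanced mice (0.56, SE 0.11, adjusted p = 0.00547), and its other 2 probes gave 0.49 and 0.67. Neither of the other Kdm3a probes passed. Vegfa differed by 0.04 (SE 0.08). Ankrd37, another hypoxia target, differed by 0.88 (SE 0.32, adjusted p = 0.114), with balanced mouse 3 at 7.39 among the deficient values. Of 29 targets of NRF2, the regulator of detoxifying enzymes, the glutathione transferases Gsta2 (-1.01, SE 0.26, adjusted p = 0.021) and Gsta4 (-0.59, SE 0.17, adjusted p = 0.0445) fell and the export pump Abcc2 (0.45, SE 0.10, adjusted p = 0.00789) rose, while Nqo1 differed by -0.24 (SE 0.23). Of 23 antioxidant enzymes, Gpx1 fell (-0.22, SE 0.05, adjusted p = 0.0136) and Glrx rose (0.41, SE 0.11, adjusted p = 0.0333). Over all genes, 1.81% were called higher and 3.00% lower. Gsta2 lost its call in 3 of the 10 settings that left out a mouse (adjusted p up to 0.0692, without deficient mouse 3), Gsta4 in 8 (adjusted p up to 0.14, without deficient mouse 3) and Glrx in 5 (adjusted p up to 0.109, without deficient mouse 2). Gsta4 and Glrx did not pass with the slide as a block (adjusted p 0.0756 to 0.094). Gsta2, Gpx1 and Glrx did not pass with the 10 arrays alone in the fit (adjusted p 0.0704 to 0.161).

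Cholesterol synthesis had the largest share of called rises among the 36 pathway lists. The pathway builds sterol from acetyl-CoA in the cytosol and endoplasmic reticulum, and its genes are switched on together by the transcription factor SREBP2 when cell sterol is low. Of 22 genes tested, 13 rose and 0 fell, beside 1.81% of all genes called higher. For 17 of the 22 every deficient mouse lay above every balanced mouse, beside 2.53% of all genes. The median difference was 1.22, against -0.0054 for all genes.

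Hmgcs1, which makes HMG-CoA, had 11.49, 11.76, 10.90, 11.01 and 11.19 in deficient mice, against 8.52, 8.40, 9.14, 9.101 and 8.52 in balanced mice. The groups lay 1.76 log2 units apart at their closest, and the difference was 2.54 (SE 0.35, adjusted p = 0.000173), a 5.8-fold higher mean. In the later mevalonate steps, Pmvk (0.95, SE 0.18, adjusted p = 0.0032), Mvd (1.72, SE 0.50, adjusted p = 0.0447) and Idi1 (2.11, SE 0.47, adjusted p = 0.00888) rose, and Mvk had no overlap but did not pass (0.94, SE 0.33, adjusted p = 0.106). Fdps, which joins the isoprene units, had 15.35, 15.69, 15.05, 15.23 and 15.26 in deficient mice and 12.99, 12.86, 13.69, 14.03 and 13.12 in balanced mice. All 5 deficient values exceeded all 5 balanced ones (1.98, SE 0.48, adjusted p = 0.0162). The other Fdps probe gave 2.02 and did not pass.

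Of the enzymes that commit to sterols, Lss, which closes the rings, rose (1.18, SE 0.30, adjusted p = 0.0219). Sqle, squalene epoxidase, had 13.28, 13.84, 12.99, 13.29 and 13.22 in deficient mice and 10.66, 10.99, 11.41, 12.01 and 10.55 in balanced mice. Its 5 deficient values all lay above the balanced ones, but it did not reach the threshold (2.20, SE 0.67, adjusted p = 0.0579), nor did the brightest probe of Fdft1, squalene synthase (1.17, SE 0.35, adjusted p = 0.0544). The other Fdft1 probe gave 1.27 and passed (adjusted p = 0.00596 over all probes). Later steps rose as well: Cyp51 (2.11, SE 0.38, adjusted p = 0.00213), a heme-containing demethylase, Nsdhl (1.92, SE 0.37, adjusted p = 0.0032), Hsd17b7 (1.68, SE 0.23, adjusted p = 0.000186), Lbr (0.56, SE 0.12, adjusted p = 0.00762), Sc5d (0.56, SE 0.14, adjusted p = 0.0154) and Dhcr7 (1.25, SE 0.26, adjusted p = 0.0061). Msmo1, a sterol oxidase that uses iron, had no overlap and did not pass (1.29, SE 0.55, adjusted p = 0.198). Tm7sf2, a sterol reductase, differed by 0.11 (SE 0.09). Mvd lost its call in 9 of the 10 settings that left out a mouse (adjusted p up to 0.114, without deficient mouse 2), Lss in 2 (without balanced mouse 5 and deficient mouse 2, adjusted p up to 0.0639). Mvd, Fdps and Lss did not pass with the slide as a block (adjusted p 0.0614 to 0.117). Counts of called members ran from 10, without balanced mouse 5, to 13 when a mouse was left out, and the median difference was 1.24, 1.13 and 1.23 within scan days 1, 2 and 3.

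**Figure D3:**
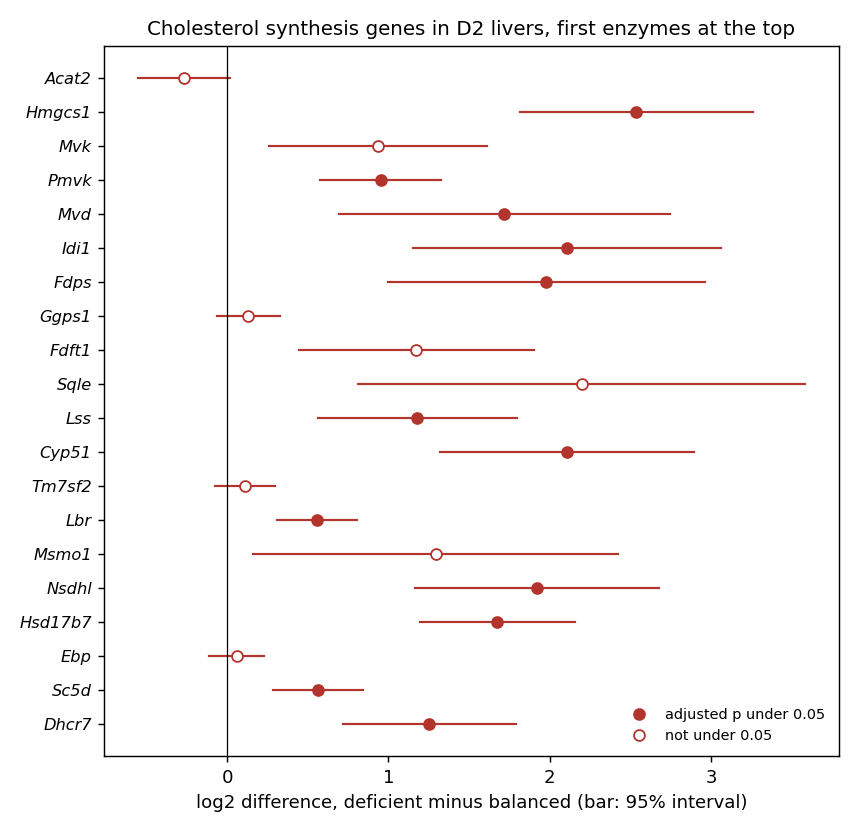
Log2 difference (deficient minus balanced) of 20 cholesterol synthesis genes with its 95% interval, early enzymes at the top; filled points passed an adjusted p of 0.05 and open points did not. Of the 20, 19 lie to the right of 0 and 12 are filled, with Hmgcs1 farthest right at 2.54.

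One promoter of this pathway is shown for its sterol element. Capitals mark the core CACCCCAC, searched on both strands, in the window of Hmgcs1 (GRCm38.p6, chr13:119690101-119690400, plus strand), the gene of the list with the largest rise.
Hmgcs1: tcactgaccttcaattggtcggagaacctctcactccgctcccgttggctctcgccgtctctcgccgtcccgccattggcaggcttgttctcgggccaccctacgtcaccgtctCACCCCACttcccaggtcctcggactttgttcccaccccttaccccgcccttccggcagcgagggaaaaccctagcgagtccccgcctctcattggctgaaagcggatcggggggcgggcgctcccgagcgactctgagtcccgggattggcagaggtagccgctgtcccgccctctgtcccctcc
The match starts at position -136. RefSeq windows were found for 17 of the 22 genes, 20 windows in all. Of these, 2 held the sterol core (10% against 2.87% of all windows), and 16 held a CCAAT box, CCAAT on either strand (80% against 37.4%). Among 14 windows of the list's genes called higher, 1 held the sterol core (7.14%). The PPAR element core AGGTCANAG was also searched. It was in 0 of 35 windows of the fatty acid oxidation list and in 2 of the 20 cholesterol synthesis windows (10%), against 2.01% of all windows. Other forms of the sterol element were not searched.

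Of 21 genes for sterol control and transport, 1 rose and 0 fell, beside 1.81% of all genes called higher and 3.00% lower. The gene that rose was Npc1, which lets cholesterol out of lysosomes (0.50, SE 0.11, adjusted p = 0.00768). For 5 of the 21 every deficient mouse lay above every balanced mouse, beside 2.53% of all genes. Srebf2, which encodes SREBP2, had 13.52, 13.80, 13.28, 13.24 and 13.46 in deficient mice and 12.75, 12.79, 12.85, 12.97 and 12.71 in balanced mice. There was no overlap, but the difference of this brightest probe did not pass (0.64, SE 0.21, adjusted p = 0.0698). Of 3 further Srebf2 probes, 1 passed at 0.65 (adjusted p = 0.0390 over all probes), and the others gave 0.77 and 0.48. Its target Insig1, which retains the SREBP complex, likewise showed no overlap and no call (0.84, SE 0.43, adjusted p = 0.311). Npc1 did not pass with the 10 arrays alone in the fit (adjusted p = 0.066).

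Genes of fatty acid oxidation came next in the number of called rises. Mitochondria and peroxisomes burn fatty acids with enzymes that the nuclear receptor PPAR alpha induces in fasting. Of 45 genes, 12 rose and 0 fell, again beside 1.81% of all genes called higher. Groups did not overlap upward for 18, beside 2.53% of all genes, and the median was 0.21, against -0.0054 for all genes. Pdk4, the kinase that turns off pyruvate oxidation, had 10.41, 10.16, 9.92, 9.49 and 9.77 in deficient mice and 8.58, 9.07, 8.55, 8.64 and 8.57 in balanced mice. Balanced mouse 2 was the highest of its group, yet lay below every deficient mouse (1.27, SE 0.26, adjusted p = 0.00562). The peroxisomal enzyme Ehhadh had 17.01, 17.02, 16.97, 17.02 and 16.71 in deficient mice, against 15.68, 16.07, 15.97, 15.53 and 15.91 in balanced mice. It was 2.16-fold higher on average, with no overlap (1.11, SE 0.19, adjusted p = 0.00121).

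Cpt1a, the gate of fatty acid entry into mitochondria, rose by 0.42 (SE 0.11, adjusted p = 0.0274), and the carnitine carrier Slc25a20 by 0.34 (SE 0.09, adjusted p = 0.0366). Inside the mitochondrion, Acadl (0.48, SE 0.08, adjusted p = 0.0013), Hadha (0.30, SE 0.09, adjusted p = 0.0438), Hadhb (0.36, SE 0.08, adjusted p = 0.0132) and Eci1 (0.33, SE 0.08, adjusted p = 0.0113) rose, and the other Hadha probes gave 0.88 and 0.10 without passing. Also higher were Cyp4a10, a fatty acid hydroxylase (0.70, SE 0.12, adjusted p = 0.000978), Crat, which makes acylcarnitines (0.73, SE 0.18, adjusted p = 0.0203), and Ppargc1a, a coactivator of oxidative genes (1.03, SE 0.29, adjusted p = 0.037). The other Ppargc1a probe gave 0.55 and did not pass. Ppara itself differed by -0.0025 (SE 0.10). Fgf21, the fasting hormone that PPAR alpha induces, had 14.31, 14.67, 13.77, 13.81 and 14.31 in deficient mice and 12.78, 12.84, 13.14, 12.33 and 13.73 in balanced mice, without overlap and without a call (1.21, SE 0.42, adjusted p = 0.0951). Cpt1a lost its call in 7 of the 10 settings that left out a mouse (adjusted p up to 0.0913, without balanced mouse 5), Slc25a20 in 7 (adjusted p up to 0.128, without balanced mouse 5) and Hadha in 9 (adjusted p up to 0.103, without balanced mouse 1). Crat lost its call in 2 of the 10 settings that left out a mouse (without balanced mouse 5 and deficient mouse 1, adjusted p up to 0.0609), Ppargc1a in 4 (adjusted p up to 0.127, without balanced mouse 5). Hadha did not pass with the slide as a block (adjusted p = 0.05). Cpt1a, Slc25a20, Hadha, Hadhb, Eci1 and Ppargc1a did not pass with the 10 arrays alone in the fit (adjusted p 0.0538 to 0.151). Without balanced mouse 5, 7 of the 45 passed, and when any 1 mouse was left out the count of rises ran from 7 to 12.

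Lipid storage and lipid building were mixed. Cidec, a coat protein that enlarges lipid droplets, had 11.53, 12.95, 12.23, 12.22 and 11.59 in deficient mice and 9.68, 10.57, 10.31, 9.85 and 10.09 in balanced mice. The values did not overlap, and the mean was 4.01-fold higher (2.00, SE 0.47, adjusted p = 0.0124). Plin2, the main droplet coat of hepatocytes, rose by 0.62 (SE 0.16, adjusted p = 0.0257). These were the 2 calls among 16 droplet genes, beside 1.81% of all genes called higher. Of 28 genes for fatty acid and triglyceride synthesis, 4 rose and 3 fell, where 3.00% of all genes were called lower.

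Scd1, which desaturates stearate with an iron centre, had 15.28, 12.68, 14.17, 13.98 and 14.79 in deficient mice, against 16.34, 15.51, 16.39, 15.24 and 15.59 in balanced mice. Deficient mouse 2 was lowest and deficient mouse 1 reached into the balanced range, for a difference of -1.64 (SE 0.35, adjusted p = 0.00666). Dgat2 (-0.44, SE 0.11, adjusted p = 0.0262) and Mogat1 (-0.52, SE 0.12, adjusted p = 0.0146), which make triglyceride, also fell, and the further Mogat1 probes gave -1.14 and -1.62 (adjusted p = 0.00202 each over all probes). Those that rose were Acly (0.43, SE 0.12, adjusted p = 0.0426), which makes cytosolic acetyl-CoA, and the enzymes of polyunsaturated fatty acid synthesis Fads1 (0.49, SE 0.13, adjusted p = 0.0242), Fads2 (0.42, SE 0.09, adjusted p = 0.0106) and Elovl2 (0.56, SE 0.14, adjusted p = 0.0166). The other Acly probe gave 0.33 and the further Dgat2 probes gave -0.40 and -0.35, none of them passing. Fasn, fatty acid synthase, had 4 balanced values and differed by 0.57 (SE 0.23, adjusted p = 0.176), and Thrsp, a lipogenic gene, by -1.49 (SE 0.69, adjusted p = 0.25). Plin2 lost its call in 6 of the 10 settings that left out a mouse (adjusted p up to 0.0735, without balanced mouse 4), Dgat2 in 5 (adjusted p up to 0.0925, without balanced mouse 5) and Mogat1 in 1 (without balanced mouse 5, adjusted p 0.0569). Acly lost its call in 8 of the 10 settings that left out a mouse (adjusted p up to 0.141, without balanced mouse 5), Fads1 in 2 (without balanced mouse 5 and deficient mouse 2, adjusted p up to 0.0915). Acly did not pass with the slide as a block (adjusted p = 0.051). Scd1, Dgat2, Acly, Fads1 and Fads2 did not pass with the 10 arrays alone in the fit (adjusted p 0.0625 to 0.0974). Core clock genes, which set daily rhythms of lipid genes, had 0 calls of 19, 2 higher and 3 lower at an unadjusted p under 0.05. Arntl had 10.35, 8.64, 9.02, 8.77 and 8.19 in deficient mice and 8.01, 9.29, 7.83, 7.88 and 7.02 in balanced mice, and Per2 had 8.76, 10.09, 9.59, 10.18 and 10.54 in deficient mice and 10.90, 10.03, 10.90, 11.22 and 10.91 in balanced mice. The other Per2 probe differed by -0.12 and did not pass. The hour of sampling is not given, and the part of these differences in the lipid results was not tested.

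In bile acid metabolism, 2 of 22 genes rose and 1 fell, beside 1.81% of all genes called higher and 3.00% lower. Nr0b2 encodes SHP, the receptor that represses bile acid synthesis. It had 7.61, 7.15, 7.73, 7.32 and 8.65 in deficient mice and 10.18, 8.603, 9.20, 9.52 and 9.84 in balanced mice. Deficient mouse 5 overlapped the lowest balanced mouse, and the mean was 3.43-fold lower (-1.78, SE 0.42, adjusted p = 0.0139). Cyp8b1, the enzyme that makes cholic acid and a target of SHP repression, had 14.47, 14.22, 14.37, 14.45 and 14.15 in deficient mice and 13.39, 13.62, 13.67, 13.72 and 13.61 in balanced mice, with no overlap (0.73, SE 0.16, adjusted p = 0.0099). Slco1a4, an organic anion transporter, rose by 1.43 (SE 0.22, adjusted p = 0.00044). Cyp7a1, the rate-limiting enzyme of bile acid synthesis, differed by 0.18 (SE 0.24, adjusted p = 0.818), and Abcb11, the bile salt pump, by -0.42 (SE 0.18, adjusted p = 0.191). Cyp8b1 did not pass with the slide as a block (adjusted p = 0.0711).

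Cytochromes P450 carry heme, and the list of them with foreign-compound receptors had 4 falls and 0 rises among 43 genes tested. The median was -0.15, and over all genes 3.00% were called lower and 1.81% higher. Some P450 genes outside this list were called higher: Cyp4a10, Cyp8b1, Cyp51, Cyp26b1 and Cyp4a12a. They are given because they passed, and the P450 genes outside the list were not counted as a set. Cyp2f2, a periportal P450, had 16.90, 16.55, 17.02, 17.10 and 16.86 in deficient mice and 17.39, 17.67, 17.55, 17.48 and 17.61 in balanced mice. It was 1.58-fold lower on average, with no overlap (-0.66, SE 0.09, adjusted p = 0.000117). Cyp2c23 (-0.89, SE 0.18, adjusted p = 0.00478), Cyp4f14 (-0.71, SE 0.17, adjusted p = 0.0144) and Cyp2c40 (-0.47, SE 0.14, adjusted p = 0.0493) also fell. The other Cyp2c40 probe gave -0.32 and did not pass. Cyp2c40 lost its call in 8 of the 10 settings that left out a mouse (adjusted p up to 0.131, without deficient mouse 2). Cyp4f14 and Cyp2c40 did not pass with the slide as a block (adjusted p 0.0767 to 0.173). Cyp2c40 did not pass with the 10 arrays alone in the fit (adjusted p = 0.0797). Of 12 periportal hepatocyte genes, Cyp2f2 and Gls2, a glutaminase (-0.39, SE 0.09, adjusted p = 0.0144), fell, and of 12 pericentral ones, Oat, ornithine aminotransferase, rose (0.70, SE 0.12, adjusted p = 0.00121).

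Carbohydrate and amino acid genes had few calls, where 1.81% of all genes were called higher and 3.00% lower. Of 27 genes of glucose output, glycogen and insulin response, Got1, a transaminase, rose (1.08, SE 0.22, adjusted p = 0.00488), as did Igfbp2, an insulin-like growth factor binding protein (0.49, SE 0.13, adjusted p = 0.0258), while Pygl, the liver's glycogen phosphorylase, fell (-0.43, SE 0.08, adjusted p = 0.00255). Pck1, the gluconeogenic enzyme, differed by 0.01 (SE 0.07, 95% interval -0.14 to 0.15). In the list of 20 urea cycle and amino acid breakdown genes, the calls were Oat, Got1 and Gls2, given above. Among 14 lipoprotein genes, Apoa4 rose (1.22, SE 0.33, adjusted p = 0.0306), as did Mttp, which loads lipid onto nascent lipoproteins (0.49, SE 0.10, adjusted p = 0.00552), while Apoc3 fell (-0.17, SE 0.05, adjusted p = 0.0401). Igfbp2 lost its call in 4 of the 10 settings that left out a mouse (adjusted p up to 0.0855, without deficient mouse 2), Apoa4 in 5 (adjusted p up to 0.101, without balanced mouse 5) and Apoc3 in 9 (adjusted p up to 0.103, without deficient mouse 3). Igfbp2 and Apoa4 did not pass with the slide as a block (adjusted p 0.0646 to 0.0918). Gls2, Got1, Igfbp2, Apoa4 and Apoc3 did not pass with the 10 arrays alone in the fit (adjusted p 0.0589 to 0.154).

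Interferon-induced genes had 39 of 40 members with a lower mean in deficient livers. These genes are switched on by type I interferon in antiviral defence. Of 40 tested, 4 fell and 0 rose, beside 3.00% of all genes called lower. At an unadjusted p under 0.05, 18 were lower and 0 higher, beside 17.9% of all genes in either direction. Every deficient mouse lay below every balanced mouse for 2 of the 40, beside 4.07% of all genes. The median was -0.40, against -0.0054 for all genes. Isg15, a ubiquitin-like modifier, had 10.47, 9.60, 10.27, 10.67 and 10.63 in deficient mice and 11.02, 11.41, 11.95, 11.08 and 10.67 in balanced mice. Deficient mouse 4 matched the lowest balanced mouse and deficient mouse 2 was the lowest of all (-0.90, SE 0.23, adjusted p = 0.0239). Zbp1, a nucleic acid sensor, had 10.27, 9.43, 10.21, 10.67 and 11.24 in deficient mice, against 11.10, 11.36, 11.95, 11.14 and 11.33 in balanced mice, with an overlap at deficient mouse 5 (-1.01, SE 0.27, adjusted p = 0.0287).

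Bst2, which tethers virions, fell with no overlap (-0.67, SE 0.15, adjusted p = 0.0103), and Ifih1, the RNA sensor MDA5, fell by 0.48 on the log2 scale (SE 0.12, adjusted p = 0.016). The other Ifih1 probe gave -0.28 and did not pass. Ifit1 had 11.22, 9.58, 11.001, 11.22 and 11.41 in deficient mice and 11.78, 11.83, 12.50, 11.54 and 11.16 in balanced mice, with deficient mouse 2 far below the rest, and did not pass (-0.87, SE 0.28, adjusted p = 0.0673). Isg15 lost its call in 4 of the 10 settings that left out a mouse (adjusted p up to 0.0795, without deficient mouse 2), Zbp1 in 5 (adjusted p up to 0.0949, without deficient mouse 2) and Ifih1 in 1 (without balanced mouse 3, adjusted p 0.0515). Isg15 and Zbp1 did not pass with the slide as a block (adjusted p 0.0522 to 0.0703). Isg15, Zbp1 and Ifih1 did not pass with the 10 arrays alone in the fit (adjusted p 0.124 to 0.163). Left-out mice moved the number of falls between 1, without balanced mouse 3, and 7, and the median difference was -0.72, -0.17 and -0.22 within scan days 1, 2 and 3. The promoter of Isg15 (GRCm38.p6, chr4:156200769-156201068, minus strand) is shown as an example, with overlapping matches of the interferon element core GAAANNGAA in capitals.
Isg15: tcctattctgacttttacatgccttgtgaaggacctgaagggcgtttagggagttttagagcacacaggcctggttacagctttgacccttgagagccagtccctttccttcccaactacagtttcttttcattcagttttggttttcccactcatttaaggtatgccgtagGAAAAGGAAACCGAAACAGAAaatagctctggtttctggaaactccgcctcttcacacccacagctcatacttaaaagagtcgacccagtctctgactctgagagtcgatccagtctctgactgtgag
It held 3 overlapping matches, the first starting at position -78. Of 35 windows for 31 of the 42 genes listed, 20 held this core on either strand (57.1%), against 8.56% of all windows.

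Among other stress lists, 1 of 26 genes of the unfolded protein and amino acid responses rose, Atf4, their shared transcription factor (0.48, SE 0.14, adjusted p = 0.0445), and 1 fell, Pdia6, a disulfide isomerase (-0.49, SE 0.12, adjusted p = 0.0218). Acute phase genes had 2 rises of 26, where 1.81% of all genes were called higher and 3.00% lower. These were the inter-alpha-trypsin inhibitor heavy chains Itih3 (0.30, SE 0.06, adjusted p = 0.0032) and Itih4 (0.36, SE 0.10, adjusted p = 0.0364). Of 9 metallothionein and zinc transport genes, Slc39a4, a zinc importer, fell (-0.48, SE 0.13, adjusted p = 0.0251), and Mt1 differed by -0.04 (SE 0.40). Atf4 lost its call in 8 of the 10 settings that left out a mouse (adjusted p up to 0.144, without balanced mouse 5), Pdia6 in 4 (adjusted p up to 0.0669, without deficient mouse 2) and Itih4 in 6 (adjusted p up to 0.122, without balanced mouse 5). Slc39a4 lost its call in 4 of the 10 settings that left out a mouse (adjusted p up to 0.0678, without balanced mouse 5). Atf4, Pdia6 and Slc39a4 did not pass with the slide as a block (adjusted p 0.0991 to 0.109). Atf4, Pdia6, Itih3 and Itih4 did not pass with the 10 arrays alone in the fit (adjusted p 0.0757 to 0.152). In the cell cycle list, Gadd45a was the 1 call of 34, and growth hormone signalling had 0 calls of 10, 1 of them at an unadjusted p under 0.05. Sex-biased liver genes had 1 rise and 1 fall in each list: of 15 male-biased genes Selenbp2 fell and the P450 Cyp4a12a rose (0.55, SE 0.13, adjusted p = 0.0164), and of 17 female-biased genes Nipal1 rose and Fmo2 fell. Without balanced mouse 5, 0 of the 15 male-biased genes were called higher, so Cyp4a12a lost its call there.

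Markers of the liver's cell types were checked beside these results. Hepatocyte markers had 0 calls of 13 and were bright on every array, with a mean log2 level of 16.50 to 16.57 in deficient and 16.465 to 16.545 in balanced mice, as the tissue label requires. Sinusoidal endothelial markers, the cells that make BMP6, had 4 rises and 1 fall of 18, beside 1.81% of all genes called higher and 3.00% lower. Their mean level was 10.70 to 10.91 in deficient and 10.65 to 10.71 in balanced mice. The rises were in Flt1 (0.62, SE 0.09, adjusted p = 0.00044) and Kdr (0.36, SE 0.10, adjusted p = 0.0344), receptors for VEGF, Pecam1 (0.38, SE 0.10, adjusted p = 0.0319) and Emcn (0.33, SE 0.07, adjusted p = 0.00697), and the fall in Oit3 (-0.35, SE 0.09, adjusted p = 0.0262). The other 4 Flt1 probes ran from -0.46 to 0.59, and the other Oit3 probe gave -0.17 and did not pass. With 1 mouse left out, the count of rises in this list ran from 2 to 4. Bmp6 fell in the same mice, and the part of endothelial cell content in that fall was not tested.

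Stellate cell and fibrosis markers had 2 rises of 16, Colec11 (0.50, SE 0.11, adjusted p = 0.00925) and Rgs5, a pericyte gene, which had 11.43, 11.51, 10.68, 10.86 and 11.27 in deficient mice and 9.90, 9.70, 10.11, 10.27 and 8.96 in balanced mice. Rgs5 groups did not overlap (1.36, SE 0.18, adjusted p = 0.000122), and the list's mean level was 10.33 to 10.64 in deficient and 10.11 to 10.94 in balanced mice. Of the 16 markers, 6 had a higher mean in deficient mice and 10 a lower one, with a median difference of -0.08. Over all genes, 1.81% were called higher and 3.00% lower. Of 15 Kupffer cell markers, 1 was called, Folr2, which fell (-0.74, SE 0.15, adjusted p = 0.00411). The list as a whole did not fall with it: 12 of the 15 had a higher mean in deficient mice and 3 a lower one, with a median difference of 0.10. The mean level of the Kupffer cell markers was 10.39 to 10.84 in deficient and 10.44 to 10.67 in balanced mice. Markers of cholangiocytes, lymphocytes and neutrophils had 0 calls of 6, 15 and 6, with 2, 0 and 0 at an unadjusted p under 0.05. No marker list had a member that was below background on all 10 arrays. The part of cell makeup in the gene results was not tested. Apart from the title, hepcidin, cholesterol and interferon lists, the list medians lay between -0.26 for the clock genes and 0.22 for the lipid droplet genes. Kdr lost its call in 6 of the 10 settings that left out a mouse (adjusted p up to 0.122, without balanced mouse 5), Pecam1 in 5 (adjusted p up to 0.107, without balanced mouse 5) and Oit3 in 5 (adjusted p up to 0.0931, without deficient mouse 1). Kdr, Pecam1, Emcn, Oit3 and Colec11 did not pass with the 10 arrays alone in the fit (adjusted p 0.0518 to 0.179).

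**Figure D4:**
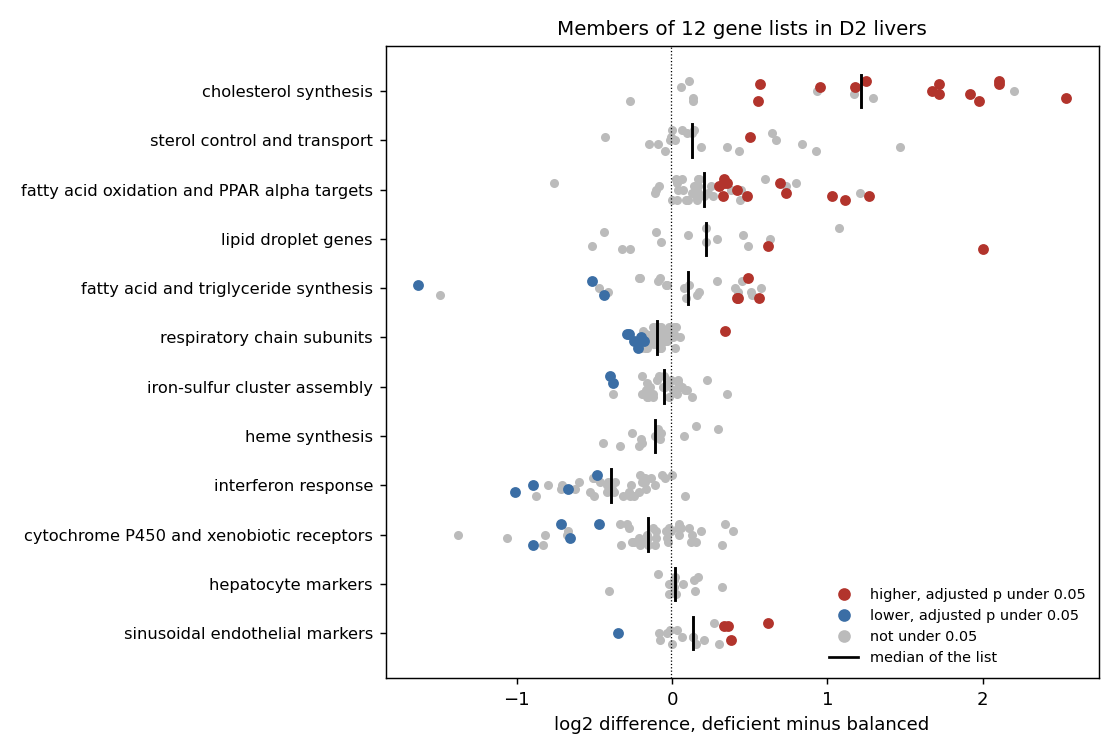
Log2 difference (deficient minus balanced) of each tested member of 12 lists, with called members red (higher) or blue (lower), others grey, the list median as a black bar and the median of all genes as a dotted line. Cholesterol synthesis has its median at 1.22 and interferon response at -0.40, while the other medians lie between -0.15 and 0.22.

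Other large rises with no overlap between groups included Nfe2, a transcription factor of the erythroid and megakaryocyte lines. It had 8.95, 8.97, 7.95, 7.86 and 8.13 in deficient mice and 6.43, 6.28, 6.56, 6.66 and 5.82 in balanced mice. The gap between groups exceeded 1 log2 unit, and the difference was 2.02 (SE 0.30, adjusted p = 0.000325). Others were Cgref1 (1.52, SE 0.40, adjusted p = 0.0261), Ackr2, a chemokine scavenger (1.32, SE 0.20, adjusted p = 0.00046), Lamb3, a laminin chain (1.26, SE 0.26, adjusted p = 0.00583), Hhip, which binds hedgehog ligands (1.23, SE 0.26, adjusted p = 0.00644), and Nipal1 (1.21, SE 0.28, adjusted p = 0.0121). Also among the 25 largest were Rdh11, a retinal reductase (1.16, SE 0.21, adjusted p = 0.00222), and Cyp26b1, which degrades retinoic acid (1.09, SE 0.20, adjusted p = 0.00205) and had 4 balanced values. Asb4 had 7.87, 7.66, 7.53, 7.97 and 7.87 in deficient mice and 6.83, 6.78, 6.56, 6.69 and 6.51 in balanced mice, without overlap (1.11, SE 0.15, adjusted p = 0.000117). Cgref1 lost its call in 4 of the 10 settings that left out a mouse (adjusted p up to 0.0662, without balanced mouse 1). Cgref1 did not pass with the slide as a block (adjusted p = 0.0836). Hhip and Nipal1 did not pass with the 10 arrays alone in the fit (adjusted p 0.0557 to 0.0663).

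After the hepcidin genes, the largest falls with no overlap were Nrep (-1.98, SE 0.57, adjusted p = 0.0425) and Krt23, a keratin. Krt23 had 10.29, 10.56, 10.46, 10.23 and 10.50 in deficient mice and 11.88, 11.91, 12.09, 11.73 and 11.97 in balanced mice. The groups lay more than 1 log2 unit apart, and the mean was 2.84-fold lower (-1.51, SE 0.26, adjusted p = 0.00138). Next came Tmem35a (-1.45, SE 0.22, adjusted p = 0.000325), the sulfatide-making Gal3st1 (-1.43, SE 0.22, adjusted p = 0.000512), Dnajb8, a chaperone (-1.33, SE 0.39, adjusted p = 0.045), and Gadd45a, a stress-induced gene (-1.23, SE 0.33, adjusted p = 0.0312). An immunoglobulin heavy chain probe, Igh-VJ558, fell by 1.39 on the log2 scale (SE 0.29, adjusted p = 0.00583), and 5 further probes of that name ran from -1.19 to 0.09.

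The steroid dehydrogenase genes of the Hsd3b family, which are similar in sequence and so uncertain one by one, fell together: Hsd3b2 (-1.14, SE 0.21, adjusted p = 0.00195), Hsd3b1 (-1.05, SE 0.20, adjusted p = 0.00362) and Hsd3b6 (-1.01, SE 0.20, adjusted p = 0.00498). Drc1, a part of the ciliary dynein regulator, had 7.29, 7.30, 7.25, 7.45 and 7.37 in deficient mice and 8.37, 8.38, 8.18, 8.58 and 8.58 in balanced mice. The groups did not overlap, which the rule for the 25 named falls required (-1.09, SE 0.12, adjusted p = 3.82e-06). Spry4, an inhibitor of receptor tyrosine kinase signals (-1.10, SE 0.23, adjusted p = 0.00697), Osbpl5 (-1.09, SE 0.25, adjusted p = 0.0102), Gnat2 (-1.08, SE 0.18, adjusted p = 0.00121), Ccn4 (-1.05, SE 0.20, adjusted p = 0.00339), Plekhb1 (-1.05, SE 0.19, adjusted p = 0.00234) and Selenbp2 (-1.01, SE 0.20, adjusted p = 0.00451) fell as well. The smallest of the 25 named falls were Ces2b (-1.001, SE 0.30, adjusted p = 0.0485), Grin2b (-0.99, SE 0.27, adjusted p = 0.0306), Tk1, thymidine kinase (-0.95, SE 0.26, adjusted p = 0.0344), Plk5 (-0.95, SE 0.23, adjusted p = 0.0163), Ak7 (-0.95, SE 0.21, adjusted p = 0.0104) and Fam229b (-0.94, SE 0.25, adjusted p = 0.0309). The other 3 Grin2b probes gave -0.24 to -0.09. The other probes of Ces2b and Ak7 gave -0.47 and -0.91 and did not pass. Nrep lost its call in 7 of the 10 settings that left out a mouse (adjusted p up to 0.118, without balanced mouse 3), Dnajb8 in 8 (adjusted p up to 0.106, without balanced mouse 4) and Gadd45a in 6 (adjusted p up to 0.0846, without deficient mouse 4). Ces2b lost its call in 10 of the 10 settings that left out a mouse (adjusted p up to 0.122, without deficient mouse 3), Grin2b in 5 (adjusted p up to 0.109, without balanced mouse 5) and Tk1 in 7 (adjusted p up to 0.0932, without balanced mouse 5). Plk5 lost its call in 2 of the 10 settings that left out a mouse (without balanced mouse 5 and deficient mouse 1, adjusted p up to 0.0523), Fam229b in 5 (adjusted p up to 0.099, without deficient mouse 1). Nrep, Dnajb8, Gadd45a, Ces2b and Tk1 did not pass with the slide as a block (adjusted p 0.0624 to 0.115). Nrep, Gadd45a, Igh-VJ558, Plekhb1, Selenbp2, Grin2b, Ak7 and Fam229b did not pass with the 10 arrays alone in the fit (adjusted p 0.0502 to 0.14).

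The same withdrawal in B6 mice gave 397 called genes (1.95%), and the test of the difference between strains, D2 minus B6, passed for 4 genes of 20332 (0.0197%), with 1466 at an unadjusted p under 0.05 (7.21%). Of the 977 genes called in D2, 116 were also called in B6 in the same direction and 2 in the opposite one. Both sets together made up 12.1% of the D2 calls and 29.7% of the B6 calls. Of the 977, 853 had the same sign in B6, but the share of all genes with the same sign was not counted. The 2 strains share no samples, though they share the normalization, the fit, and slides and scan days. Missing the threshold in B6 does not show a difference from D2, so the difference itself was tested for every gene. The 4 calls depended on the setting: with the slide as a block limma's test of the difference passed for 0 genes, with 1657 at an unadjusted p under 0.05, and with 1 mouse left out it passed for 2 to 6.

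Plscr2, of the phospholipid scramblase family, averaged 11.23 ± 0.09 in deficient and 11.65 ± 0.08 in balanced D2 mice, and 11.94 ± 0.13 in deficient and 11.66 ± 0.07 in balanced B6 mice (SD, n = 5 each). It fell in D2 by 0.42 on the log2 scale and rose by 0.28 in B6, a difference between strains of -0.70 (SE 0.11, adjusted p = 0.00995). Slc16a11, of the monocarboxylate transporter family, averaged 11.56 ± 0.11 and 12.10 ± 0.13 in deficient and balanced D2 mice, and 13.16 ± 0.14 and 12.86 ± 0.18 in deficient and balanced B6 mice. The strains differed by -0.84 (SE 0.14, adjusted p = 0.0145). Kazald1 averaged 8.40 ± 0.06 in deficient and 9.02 ± 0.16 in balanced D2 mice, against a change of -0.02 (SE 0.07) in B6, with a difference of -0.59 (SE 0.11, adjusted p = 0.0341). The clone AK078597 had 4.53, 4.02, 3.92, 3.95 and 4.57 in deficient and 5.50, 5.50, 5.53, 5.58 and 5.42 in balanced D2 mice, with 2 of 5 deficient arrays above background, and a difference between strains of -1.35 (SE 0.23, adjusted p = 0.0297). Its B6 means were 3.99 ± 0.14 in deficient and 3.95 ± 0.07 in balanced mice, at the floor, so no B6 response could be measured and that test says nothing of a difference in response. With the slide as a block the adjusted p of the strain difference was 0.0843 for Plscr2 and Slc16a11 and 0.168 for Kazald1 and AK078597.

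Next in order were Fmo2, a flavin monooxygenase that fell in D2 (-0.61, SE 0.17, adjusted p = 0.0417) and rose in B6 by 0.71, with a difference just short of the threshold at -1.31 (SE 0.25, adjusted p = 0.0515), then Tm7sf2 (-0.62, adjusted p = 0.177), Gal3st1 (-1.50, adjusted p = 0.194), Krt23 (-1.74, adjusted p = 0.195), LOC677429 (0.88, adjusted p = 0.203), which was at the floor in all 10 D2 mice, and Tmco3 (-0.48, adjusted p = 0.24), whose other probe gave 0.42 for the D2 change. For the iron genes the strains were not shown to differ: the difference was 0.63 (SE 0.26, adjusted p = 0.602) for Tfrc, 0.26 (SE 0.12, adjusted p = 0.655) for Bmp6 and -2.29 (SE 0.61, adjusted p = 0.344) for Hamp2. In cholesterol synthesis 13 of 22 genes rose in D2 and 5 in B6, with medians of 1.22 in D2 and 0.59 in B6, and 0 of the 22 passed the test of the difference, the lowest adjusted p being that of Tm7sf2. Fmo2 lost its call in 7 of the 10 settings that left out a mouse (adjusted p up to 0.14, without deficient mouse 1). Fmo2 did not pass with the slide as a block (adjusted p = 0.0589). Fmo2 did not pass with the 10 arrays alone in the fit (adjusted p = 0.176).

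**Figure D5:**
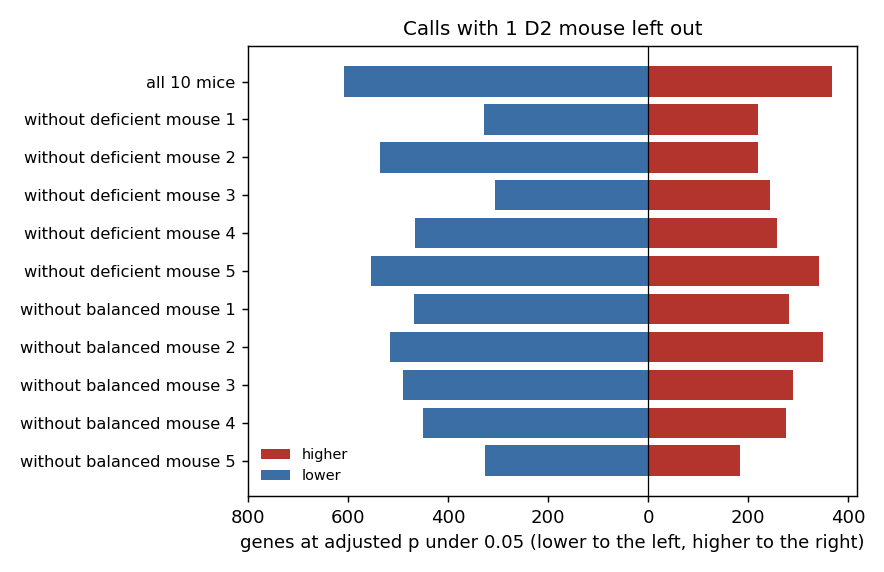
Number of genes at an adjusted p under 0.05 with all 10 mice and with each D2 mouse left out in turn, lower in deficient mice to the left (blue) and higher to the right (red). All 10 mice gave 368 higher and 609 lower, and the fewest calls came without balanced mouse 5, with 183 higher and 326 lower.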

How the data were processed

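Per the file headers, the processed signal used here is a spot intensity, linear and background-subtracted. The headers name Agilent Feature Extraction 9.1.3.1, and the labels name 9.5.1. The value table that the authors deposited holds the same intensity values, with a largest difference of 0. Outlier-marked and control spots were dropped, spots of a probe averaged, and the 30 arrays quantile normalized, raised to a floor of 15.1 and log2 transformed from the deposited intensities. Of 41174 probes, 29986 were kept, marked well above background on at least 3 B6 and 3 D2 arrays. On the arrays that mark lies at 5 additive errors, while the series' text names 2.6 background standard deviations, tried as an alternative. The brightest probe stood for each of 20332 genes, 6693 of which had more than 1 kept probe. Names came from RefSeq (GRCm38.p6) by accession for 22951 probes, by symbol for 6659 and by synonym for 3109, and 8455 kept the array's name.

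A limma 3.58.1 fit (R 4.3.3, with Python 3.11.15 for tables) of 6 group means used all arrays, with Benjamini-Hochberg adjustment at 0.05. The series' text names R/MAANOVA, which was not run. Named were the title and hepcidin genes, the 25 largest rises and 25 largest falls among called genes without overlap (clone names passed over), the 10 smallest adjusted p of the strain difference, and up to 12 members of each list by role. Cyp4a12a was named after its value was seen. Some members chosen by this rule are not reported here, though list counts include them. The genes and the 36 pathway and 7 marker lists were chosen with earlier results of these data known. Alternatives covered normalization, background, filters, probe choice, slide and scan day, the test, and each mouse left out.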

Additional observations from a re-analysis of the deposited data

Results flagged for a closer look

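In 28 of 372 groups of 5 mice checked over the named genes, 1 mouse stood far from the other 4 on the log2 scale, where chance gives about 1 in 20 groups. Among deficient mice, mouse 2 stood apart for Cyp4a10 at 17.77, Fads2 at 15.21, Fth1 at 18.16, Hsd17b7 at 13.31, Tk1 at 11.93 and Ifit1 at 9.58. Deficient mouse 4 did so for Emcn at 10.16, Fech at 14.05 and Slc4a1 at 8.32, and deficient mouse 5 for Ehhadh at 16.71, Mttp at 13.06 and Slc39a4 at 14.01. Deficient mouse 3 stood apart for Iscu at 14.04 and deficient mouse 1 for Ppox at 9.96.

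Among balanced mice, mouse 5 stood apart for Fech at 14.51, Fth1 at 18.28, Hjv at 11.12, Ireb2 at 12.82 and Ndufs8 at 12.05. Balanced mouse 4 did so for Lss at 10.5, Msmo1 at 15.96 and Mvk at 10.25. Balanced mouse 3 had Ankrd37 at 7.39, Hadhb at 15.79 and Ifih1 at 12.51, and balanced mouse 2 had Ncoa4 at 13.83, Pdk4 at 9.07 and Per2 at 10.03.

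The limma test of the D2 minus B6 difference in the deficiency change passed for AK078597 (-1.35), Slc16a11 (-0.84), Plscr2 (-0.70) and Kazald1 (-0.59). With the slide as a block it passed for 0 genes, with 1657 at an unadjusted p under 0.05, and the adjusted p of these 4 was 0.0843 or 0.168. AK078597 was at the floor in B6 mice of both diets, so its value shows no difference in response.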

How the results depend on the processing

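Of the 133 named called genes, 76 passed with the 10 arrays alone in the fit, 70 by the methods' t-test, 101 with the slide as a block and 131 with scan day as a block. Under the 10 arrays alone and the methods' t-test, the adjusted p was 0.0974 and 0.144 for Scd1, and 0.0625 and 0.0934 for Got1. Counts of called genes moved as well. Without normalization between arrays 455 genes passed, 143 higher and 312 lower. Quantile normalization and fit on the 10 arrays alone gave 542 (212 higher, 330 lower), and the 10 arrays alone in the fit gave 352 (136 higher, 216 lower). The methods' t-test gave 481 after Benjamini-Hochberg adjustment (174 higher, 307 lower) and 3335 unadjusted. Scan day as a block gave 573 higher and 9 strain differences, cyclic loess 7 strain differences, and the slide as a block 0 by limma, against 4. Within scan day 1, with 1 mouse a diet, limma called 0 genes, 0 higher and 0 lower, with 2486 at an unadjusted p under 0.05, and within day 2 it called 2, 0 higher and 2 lower, with 1708 unadjusted. Day 3 gave 1535, of which 634 were higher, and 302 strain differences, with a lone balanced mouse, mouse 5, assumed to vary like the other groups. Centring on the 75th percentile gave 325 higher and 817 lower. With 1 mouse left out, calls ran from 509 to 897, higher calls from 183 to 349, lower calls from 306 to 555 and strain differences from 2 to 6, and 45 of the 133 named calls were lost without balanced mouse 5. The cause of these shifts was not tested. No paired analysis was possible because the labels give no replicate numbers that match mice across diets. Signals near background, such as Hamp in deficient livers, limit the size of fitted differences.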
